A study of Mus musculus with 8 samples.

Results

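The troponin isoforms are the genes for the 3 subunits of troponin, the calcium switch of the striated muscle thin filament. The members were every row of the atrial count table whose symbol was Tnni1, Tnni2, Tnni3, Tnnt1, Tnnt2, Tnnt3, Tnnc1 or Tnnc2, which gave 8 genes of the 54532 in the table. They were picked by symbol as a gene family, with earlier results of these data known. Their transcripts were compared between 4 KO and 4 control libraries of mouse atria, sequenced as poly(A) RNA. KO atria came from Chd4flox/flox mice given AAV9:Nppa-Cre on postnatal day 2, and control atria from Chd4flox/flox mice given AAV9:Nppa-EGFP on the same day. All libraries therefore carried the floxed alleles and an AAV9 vector, and an effect of Cre or of EGFP cannot be told apart from that of losing Chd4, the ATPase of the NuRD chromatin remodelling complex. The Nppa promoter that drives both vectors is active in atrial muscle cells, while the libraries were labelled as right and left atria of mixed cell type. No source used here gave the age at collection or the number of mice per library. The p-values thus reflect spread among libraries, and it is not known whether each library stands for separate mice.

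As background, troponin C binds calcium, troponin I holds the actin and myosin interaction off until calcium arrives, and troponin T ties the complex to tropomyosin. Each subunit has separate genes for separate muscle types. Tnni3, Tnnt2 and Tnnc1 encode the cardiac forms, the last one shared with slow skeletal muscle. Tnni1 and Tnnt1 encode the slow skeletal forms, and Tnni2, Tnnt3 and Tnnc2 the fast skeletal forms. Tnni1 is also the troponin I gene of the embryonic and newborn heart, which gives way to Tnni3 after birth.

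The troponin I and T genes stand in pairs on the chromosome, each pair holding one gene of each subunit. On GRCm38, the assembly of the mm10 build named in the submitters' processing notes, Tnni1 (chromosome 1, 135779434 to 135810989) lies 25.4 kb before Tnnt2 (chromosome 1, 135836354 to 135852260). Tnni3 (chromosome 7, 4518305 to 4524229) lies 1.9 kb from Tnnt1 (chromosome 7, 4504570 to 4516382). Tnni2 (chromosome 7, 142441808 to 142444410) lies 54.4 kb before Tnnt3 (chromosome 7, 142498836 to 142516009). The troponin C genes stand alone, Tnnc1 on chromosome 14 (31208312 to 31211729) and Tnnc2 on chromosome 2 (164777161 to 164779967). All 8 are annotated as protein-coding in GENCODE M21 and the counts are per gene.

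Total counts were 34002292 to 38228982 in KO libraries and 39804625 to 40588007 in control libraries. Chd4 was at 169 to 199 CPM (counts per 1e6 on the TMM scale, which corrects library size) in KO libraries and at 278 to 308 CPM in control libraries, a fall by 0.66 on the log2 scale (SE 0.06, edgeR adjusted p = 1.86e-05). KO 2 and control 2 stood apart from the other libraries on the second principal component, at -21.4 and -30.4 against 1.29 to 14.5 in the others. The Y-linked gene Ddx3y was near 0 in KO 2, control 1 and control 2 (0.71 to 0.86 CPM) and at 105 to 124 CPM elsewhere. Library name prefixes were not shared between the groups. KO 1 had a prefix of its own among the KO libraries, and controls 1 and 2 had another than controls 3 and 4, so prefix and group cannot be told apart. All 7 cardiomyocyte markers were detected, and their summed level was 46600 to 59200 CPM in KO libraries and 71300 to 78800 CPM in control libraries.

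The slow and fast skeletal troponin genes Tnni1, Tnni2 and Tnnt1 rose in the KO atria, while the cardiac genes Tnni3 and Tnnt2 fell. Of the 8 genes, 7 passed the filter on low counts, and of these 3 were called higher, 2 lower and 2 not called. That is 71.4% of the tested members, and over all 18033 tested genes 27.9% were called, 14.8% higher and 13.1% lower. In total, 5032 genes were called, 2677 higher and 2355 lower (53.2% of calls higher). With scaling by total counts 3695 were called higher and 1583 lower (70% higher), the median log2 fold change of all tested genes being 0.09 there and 0.01 with TMM scaling. Every KO library lay above every control library for 3 of the 7 tested members and below every one for 2, against 15.3% and 13.9% of all tested genes. In rank of log2 fold change among those genes, Tnni1 stood at position 64 from the top, Tnnt1 at 137 and Tnni2 at 162.

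**Figure D1:**
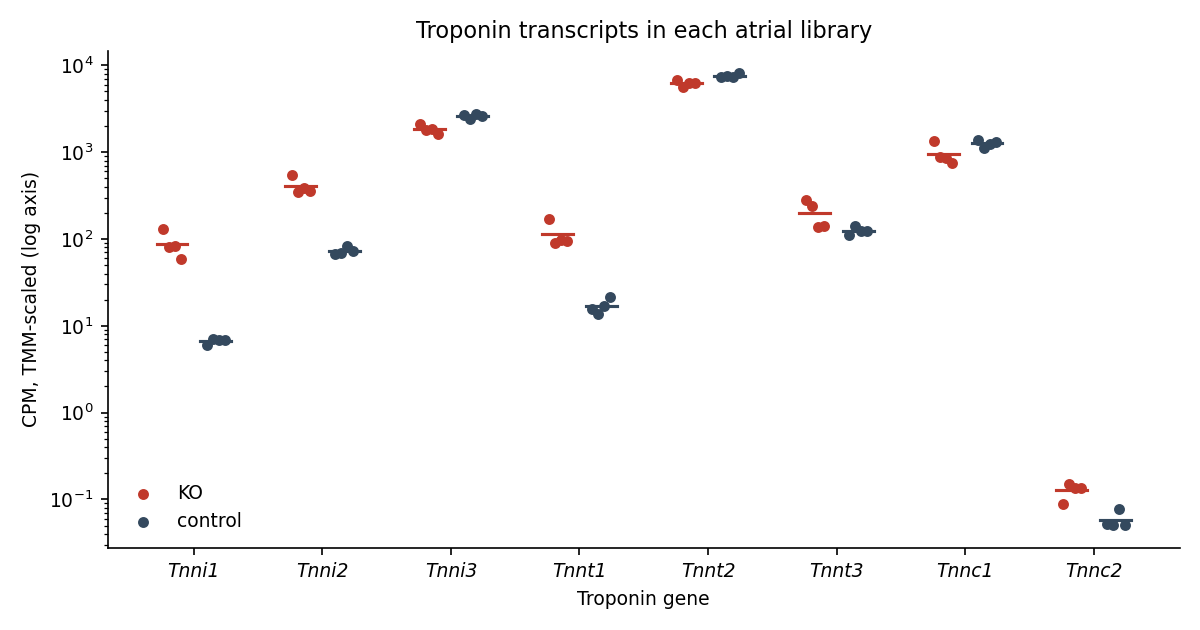
Each point is 1 library and each short line a group mean, in TMM-scaled CPM on a log axis, for the 4 KO libraries (red, left) and the 4 control libraries (dark, right) of each troponin gene. Tnni1, Tnni2 and Tnnt1 are above every control library in all KO libraries, Tnni3 and Tnnt2 are below them, and Tnnt3 and Tnnc1 overlap.

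Sequence just before the start of 4 genes is shown because it belongs to both members that differ in opposite directions within 2 of the chromosome pairs. Each line holds 250 bases before a RefSeq transcript start on GRCm38.p6, 5′ to 3′ on the gene's own strand. Capitals mark matches to AGGTGT, a motif bound by T-box factors, and to CATTCC, the MCAT motif, on either strand. RefSeq starts were found for 6 of the 8 genes, not for Tnni2 and Tnnt3, and for Tnni1 and Tnnt2 the first listed start is shown.
Tnni1, rose, plus strand, chr1:135799171-135799420: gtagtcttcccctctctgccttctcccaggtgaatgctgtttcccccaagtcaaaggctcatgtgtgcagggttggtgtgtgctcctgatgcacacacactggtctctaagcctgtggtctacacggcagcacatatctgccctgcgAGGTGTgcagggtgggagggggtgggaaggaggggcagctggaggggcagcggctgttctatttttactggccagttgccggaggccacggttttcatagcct
Tnnt2, fell, plus strand, chr1:135836084-135836333: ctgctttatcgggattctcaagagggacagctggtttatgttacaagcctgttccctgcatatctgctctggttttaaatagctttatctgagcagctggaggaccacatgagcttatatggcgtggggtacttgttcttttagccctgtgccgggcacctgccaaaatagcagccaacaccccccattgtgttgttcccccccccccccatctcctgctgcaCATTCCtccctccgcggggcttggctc
Tnnt1, rose, minus strand, chr7:4515976-4516225: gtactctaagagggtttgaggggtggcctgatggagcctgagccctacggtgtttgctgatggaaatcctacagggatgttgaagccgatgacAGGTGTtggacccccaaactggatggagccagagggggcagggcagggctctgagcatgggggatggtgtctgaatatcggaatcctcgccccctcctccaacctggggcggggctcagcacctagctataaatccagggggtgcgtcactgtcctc
Tnni3, fell, minus strand, chr7:4522529-4522778: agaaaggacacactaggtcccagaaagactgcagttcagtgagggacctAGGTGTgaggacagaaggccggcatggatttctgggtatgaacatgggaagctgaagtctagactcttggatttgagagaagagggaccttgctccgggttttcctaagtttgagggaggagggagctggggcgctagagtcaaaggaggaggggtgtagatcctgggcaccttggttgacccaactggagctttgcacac

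AGGTGT was searched because the series title places CHD4 with the T-box factor TBX5. It occurred once in Tnni1, 103 bases before the start, once in Tnnt1, 157 bases before, and once in Tnni3, 201 bases before. It was in 11.8% of 32851 RefSeq windows of the same length. CATTCC occurred once in Tnnt2, 27 bases before the start, and once in Tnnc1, and it was in 12.6% of all windows. The E-box letters CANNTG, which overlap the T-box match of Tnnt1 by position, occurred 4 times in Tnni1, 4 times in Tnnt2, once in Tnnt1 and once in Tnni3, and at least once in 66.2% of all windows. TATAAA was found in Tnnt1, 30 bases before its start (12.4% of all windows), and AGATAA, bound by zinc finger factors of the heart, in Tnnt2 (9.99%). Neither the MEF2 consensus (2.92% of all windows) nor the CArG box (1.47%) matched in any of the 6 genes' windows. Genes that rose and a gene that fell both held AGGTGT, and a match is only a match of letters.

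Tnni1, the slow skeletal and newborn heart form of troponin I, had 129, 80.4, 83.5 and 58.55 CPM in KO libraries 1 to 4, against 6.05, 7.003, 6.78 and 6.90 CPM in control libraries 1 to 4. The lowest KO library was far above the highest control library. Tnni1 averaged 87.8 ± 29.5 CPM in KO and 6.68 ± 0.43 CPM in control (SD, n = 4 each), a 13.1-fold rise (log2 fold change 3.71, SE 0.25, edgeR adjusted p = 2.44e-05). Summed counts were 12847 in KO and 1048 in control. Its spread was 33.6% of the mean among KO libraries and 6.42% among control libraries.

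Tnni2, the fast skeletal form, had 546, 346, 391 and 355 CPM in KO libraries 1 to 4, against 67.0, 68.6, 83.2 and 72.6 CPM in control libraries 1 to 4. The groups did not overlap, and KO 1 was the highest library. Tnni2 averaged 410 ± 93.2 CPM in KO and 72.8 ± 7.30 CPM in control (SD, n = 4 each), a 5.62-fold rise (log2 fold change 2.49, SE 0.15, edgeR adjusted p = 2.89e-06).

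Tnni3, the cardiac form, had 2112, 1787, 1834 and 1619 CPM in KO libraries 1 to 4, against 2713, 2418, 2735 and 2626 CPM in control libraries 1 to 4. Every KO library was below every control library. Tnni3 averaged 1838 ± 205 CPM in KO and 2623 ± 145 CPM in control (SD, n = 4 each), a 1.43-fold decrease (log2 fold change -0.51, SE 0.08, edgeR adjusted p = 0.00076). Beside it, 5 of the 7 cardiomyocyte markers fell, Pln rose and Actc1 was not called. All 6 atrial cardiomyocyte markers fell, with summed levels of 17500 to 24100 CPM in KO libraries and 31400 to 34000 CPM in control libraries. The part of these levels in the difference was not tested. In bulk tissue, fewer cardiomyocytes, less RNA per cardiomyocyte and lower levels of single genes within cardiomyocytes cannot be told apart.

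Markers of some other atrial cell types, though not of all, were higher in sum beside the fall of the cardiac genes. Fibroblast markers summed to 3660 to 4900 CPM in KO libraries and 3390 to 3630 CPM in control libraries, with 3 of 6 higher and 0 lower. Epicardial markers summed to 571 to 713 CPM in KO libraries and 436 to 564 CPM in control libraries, with 4 of 6 higher and 0 lower. Endothelial markers summed to 1250 to 1370 CPM in KO libraries and 1140 to 1240 CPM in control libraries, with 3 of 6 higher and 1 lower. For the sums of these 3 lists every KO library was above every control library. Over all tested genes 14.8% were called higher and 13.1% lower, and every KO library was above every control library for 15.3%. The groups overlapped for macrophage markers (287 to 382 CPM in KO, 239 to 293 CPM in control, 4 of 6 higher and 0 lower). Smooth muscle markers overlapped too (1450 to 1900 CPM in KO, 1260 to 1570 CPM in control, 3 of 6 higher and 1 lower). Des made up most of the smooth muscle sum, averaging 1257 CPM across KO libraries against 937 CPM across controls. Tagln, Cnn1 and Des rose (log2 fold changes 2.02, 1.855 and 0.42), while Acta2 fell (-1.41). Myh11 (-0.54) and Smtn (-0.08) were not called, so the sum mainly follows Des and not the list as a whole. Thymocyte markers summed to 50.9 to 121 CPM in KO libraries and 7.72 to 56.9 CPM in control libraries, and ventricular markers to 17.5 to 78.2 CPM in KO libraries and 29.7 to 282 CPM in control libraries. Brown adipocyte markers summed to 9.31 to 48.8 CPM in KO libraries and 8.59 to 10.7 CPM in control libraries, while lung epithelium markers were at or under 1.52 CPM in every library. Schwann cell and neuron markers summed to 15.3 to 17.7 CPM in KO libraries and 14.5 to 21.8 CPM in control libraries. The part of these cell types in the troponin levels was not tested.

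Tnni3 shares 86 bp of exon with Dnaaf3, a gene of ciliary dynein assembly on the same strand, which averaged 5.53 CPM in KO and 6.66 CPM in control.

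The cardiac form remained the most abundant troponin I transcript in the KO atria, but its share was smaller. Measured as CPM per kb of merged exons, Tnni3 made up 75.1% ± 2.32 of troponin I in KO and 96.2% ± 0.31 in control (SD, n = 4 each). Tnni2 made up 22.9% ± 2.06 in KO and 3.68% ± 0.303 in control, and Tnni1 2.01% ± 0.388 in KO and 0.141% ± 0.0151 in control. The groups did not overlap for any of the 3 shares. No p is given for shares, which are made of the members themselves.

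Single libraries held a narrow range of the combined skeletal share. Tnni1 and Tnni2 together were 28.1%, 22.7%, 24.3% and 24.4% of troponin I in KO libraries 1 to 4, against 3.41%, 3.91%, 4.15% and 3.81% in control libraries 1 to 4. Per kb of the longest coding transcript the same share was 23.0% ± 2.24 in KO and 3.38% ± 0.274 in control. Within this skeletal pool the slow form was the minor one. The ratio of Tnni1 to Tnni2 CPM, which is not corrected for length, was 0.212 ± 0.0326 in KO and 0.0923 ± 0.00864 in control (SD, n = 4 each).

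The summed troponin I level differed less than its parts. It was 1189 ± 167 CPM per kb of merged exons in KO and 1322 ± 72.5 in control (SD, n = 4 each), and KO 1, at 1425, lay above all controls while KO 2 to KO 4, at 1038 to 1173, lay below them.

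Tnnt1, the slow skeletal form of troponin T, had 170.5, 90.2, 98.1 and 93.9 CPM in KO libraries 1 to 4, against 15.6, 13.8, 16.9 and 21.45 CPM in control libraries 1 to 4. The groups did not overlap, and KO 1 stood apart from the other KO libraries. Tnnt1 averaged 113 ± 38.4 CPM in KO and 16.9 ± 3.27 CPM in control (SD, n = 4 each), a 6.68-fold rise (log2 fold change 2.74, SE 0.26, edgeR adjusted p = 0.000203). The log2 fold change was 2.47 without KO 1, the lowest value with 1 library left out.

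Tnnt3, the fast skeletal form, had 281, 239, 138 and 142 CPM in KO libraries 1 to 4, against 111.5, 142, 124 and 123 CPM in control libraries 1 to 4. KO 1 and KO 2 were well above every control library, KO 4 was just above the highest of them, and KO 3 lay inside the control range. Tnnt3 averaged 200 ± 71.3 CPM in KO and 125 ± 12.4 CPM in control (SD, n = 4 each), with a log2 fold change of 0.68 (SE 0.25) that was not called (edgeR adjusted p = 0.0795). It was called without KO 3 (adjusted p = 0.0328) or without KO 4 (adjusted p = 0.043).

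Tnnt2, the cardiac form and the most abundant troponin transcript by reads, had 6782, 5575, 6343 and 6272 CPM in KO libraries 1 to 4, against 7437, 7584, 7326 and 8087 CPM in control libraries 1 to 4. Every KO library was below every control library. Tnnt2 averaged 6243 ± 499 CPM in KO and 7609 ± 336 CPM in control (SD, n = 4 each), a 1.22-fold decrease (log2 fold change -0.29, SE 0.07, edgeR adjusted p = 0.0124). The call was lost against controls 1 and 2 alone (adjusted p = 0.064) and without KO 2 and control 2 together (adjusted p = 0.0729).

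The share of Tnnt2 within troponin T was also smaller in KO, by an amount that depends on the gene length used. Per kb of merged exons Tnnt2 made up 82.1% ± 4.57 in KO and 91.9% ± 0.642 in control, Tnnt3 12.8% ± 3.94 in KO and 7.40% ± 0.719 in control, and Tnnt1 5.14% ± 1.14 in KO and 0.718% ± 0.116 in control (SD, n = 4 each). The merged exons of Tnnt2 cover 7752 bp, while its longest coding transcript has 1200 bp. Per kb of the longest coding transcript, Tnnt2 made up 94.7% ± 1.5 in KO and 98.0% ± 0.16 in control, Tnnt3 3.38% ± 1.16 in KO and 1.79% ± 0.184 in control, and Tnnt1 1.92% ± 0.489 in KO and 0.246% ± 0.0392 in control. With either length the groups did not overlap for any of the 3 shares.

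**Figure D2:**
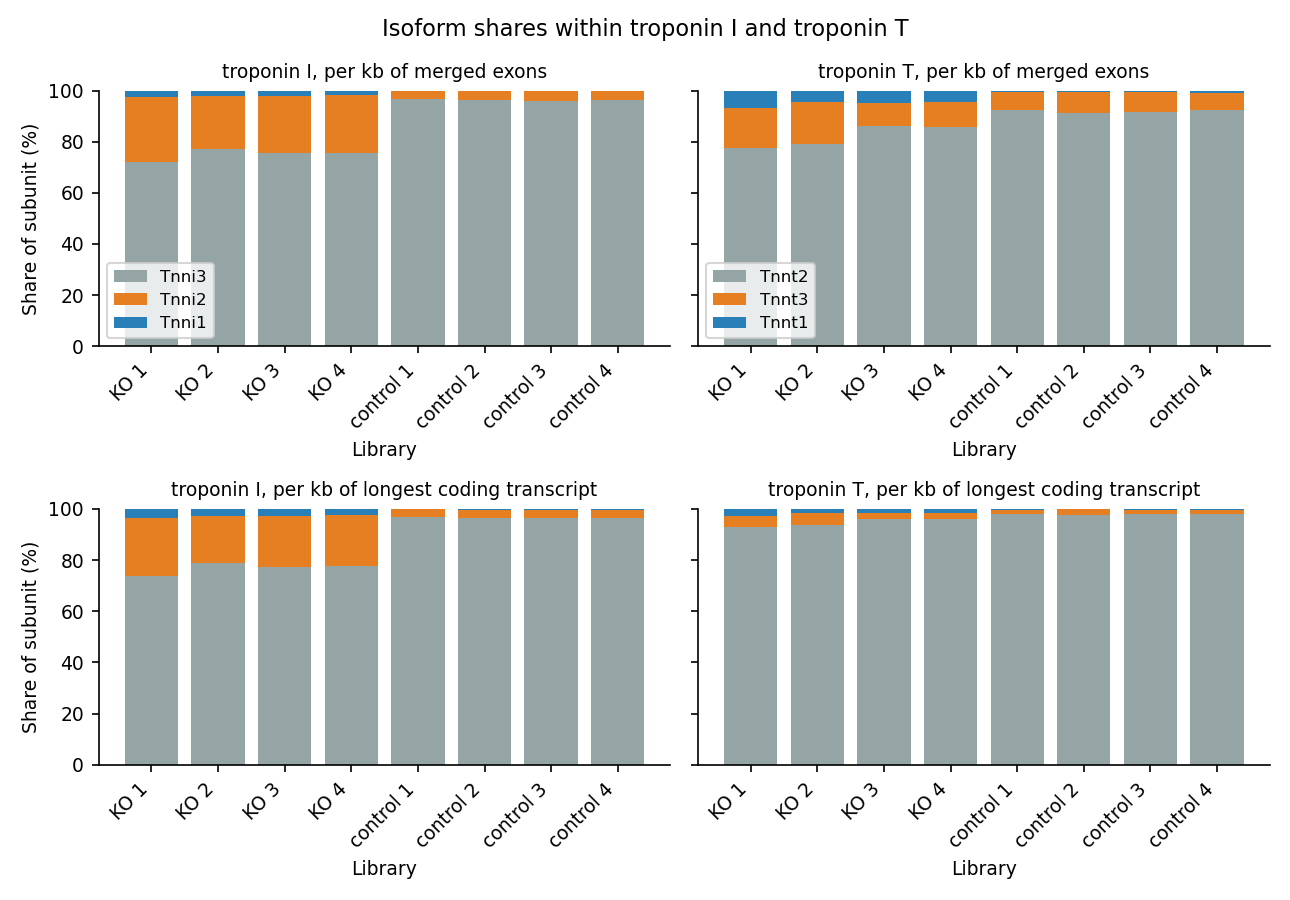
Stacked bars give the percent of each isoform within troponin I (left) and troponin T (right) in each library, KO libraries first, with levels per kb of merged exons (top) or per kb of the longest coding transcript (bottom). Tnni2 and Tnni1 together take 22.7% to 28.1% of troponin I in KO libraries and 3.41% to 4.15% in control libraries in the top left panel, and the skeletal part of troponin T is smaller with the coding transcript length.

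The ratio of the fast skeletal genes of troponin T and troponin I was lower in every KO library than in every control library. Tnnt3 CPM was 0.514, 0.691, 0.353 and 0.40 times Tnni2 CPM in KO libraries 1 to 4, against 1.66, 2.07, 1.49 and 1.70 times in control libraries 1 to 4. These ratios are not corrected for length and are compared only between groups.

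Tnnc1, which encodes the troponin C of cardiac and slow skeletal muscle, had 1344, 871, 859 and 760 CPM in KO libraries 1 to 4, against 1379, 1116, 1241 and 1318 CPM in control libraries 1 to 4. KO 1 was within the control range, and KO 2 to KO 4 were below every control library. Tnnc1 averaged 958 ± 262 CPM in KO and 1263 ± 113 CPM in control (SD, n = 4 each), with a log2 fold change of -0.40 (SE 0.16) that was not called (edgeR adjusted p = 0.104). Without KO 1 it was called, with a log2 fold change of -0.61 (adjusted p = 0.000272), and it was called by DESeq2 (adjusted p = 0.031) and limma-voom with quality weights (adjusted p = 0.00418).

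Tnnc2, the fast skeletal troponin C gene, was close to undetected in both groups and did not pass the filter. It had 3, 6, 5 and 5 counts in KO libraries 1 to 4, against 2, 2, 3 and 2 counts in control libraries 1 to 4. The control libraries and KO 1 were at or below the floor of 3 counts per library, worth 0.0756 to 0.0780 CPM in control libraries, so no fold is given. This floor covers counting error only. Of its 800 bp of merged exons, 592 bp are shared with exons of Ube2c, a ubiquitin-conjugating enzyme gene on the opposite strand. No source used here gives the strand setting of the counting, so reads of the 2 genes cannot be told apart there. Ube2c itself averaged 3.69 ± 0.385 CPM in KO and 2.69 ± 0.992 CPM in control (edgeR adjusted p = 0.186). Tnnc1 made up at least 99.98% of the troponin C reads in every library.

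Per kb of merged exons the cardiac genes stood above the skeletal genes in both groups, and the order of the cardiac genes depended on the length used. In KO atria the ranges of mean ± SD overlapped for Tnnc1 (921 ± 251 CPM per kb), Tnni3 (891 ± 99.3) and Tnnt2 (805 ± 64.4). These were followed by Tnni2 (274 ± 62.2), Tnnt3 (126 ± 45.1), Tnnt1 (51.4 ± 17.4) and Tnni1 (24.4 ± 8.20). In control atria Tnni3 (1272 ± 70.1 CPM per kb) and Tnnc1 (1214 ± 109) lay within each other's spread above Tnnt2 (981.5 ± 43.3), followed by Tnnt3 (79.0 ± 7.84), Tnni2 (48.7 ± 4.88), Tnnt1 (7.69 ± 1.48) and Tnni1 (1.86 ± 0.119). Tnni2 and Tnnt3 thus stood in opposite order in KO and control. Per kb of the longest coding transcript Tnnt2 led both groups, at 5202 ± 416 in KO and 6341 ± 280 in control. The order of the skeletal genes was the same as with merged exons. In KO the ranges of mean ± SD then overlapped between Tnnt3 (185.5 ± 66.1) and Tnnt1 (107 ± 36.2), and between Tnnt1 and Tnni1 (76.4 ± 25.7).

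KO 1 held the highest level among KO libraries for 7 of the 7 tested members, skeletal and cardiac alike. It also had the highest summed cardiomyocyte markers of the KO libraries (59200 CPM, against 46600 to 50100 CPM in the others). Without KO 1 the rises remained, with log2 fold changes of 3.47 for Tnni1, 2.32 for Tnni2 and 2.47 for Tnnt1. The part of KO 1 in the members' spread was not tested beyond leaving it out.

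Of the 11 skeletal muscle fibre markers, all were tested, none was called higher by edgeR and 1, Myh2, was called lower, with summed levels of 1180 to 1890 CPM in KO libraries and 1610 to 1870 CPM in control libraries. On average Ckm (541 CPM in KO, 533 CPM in control) and Myl1 (549 CPM in KO, 396 CPM in control) held the largest parts of these sums. Myh1, Myh2, Myh4, Mylpf, Pvalb, Actn3 and Mybpc1 had log2 fold changes of -1.29 to -0.83. Those of Acta1, Ckm, Myl1 and Mybpc2 were -0.32 to 0.47. Myh4, the fast myosin heavy chain, had 122, 327, 82.3 and 73.5 CPM in KO libraries 1 to 4, against 301, 378, 350 and 326 CPM in control libraries 1 to 4 (log2 fold change -1.16, edgeR adjusted p = 0.149). Pvalb, which encodes the calcium buffer parvalbumin of fast fibres, had 20.5, 45.9, 14.3 and 10.6 CPM in KO libraries 1 to 4, against 39.3, 54.5, 49.5 and 47.0 CPM in control libraries 1 to 4 (log2 fold change -1.06, edgeR adjusted p = 0.145). For both genes KO 2 lay at or near the control levels and the other KO libraries lay below them.

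KO 2 was the highest KO library for 8 of the 11 fibre markers. Among the skeletal troponins it was the lowest KO library for Tnni2 and Tnnt1, between KO 3 and KO 4 for Tnni1, and for Tnnt3 below KO 1 and well above KO 3 and KO 4. Of the 11 markers, Myl1, a fast myosin light chain, had 675, 547, 451 and 524 CPM in KO libraries 1 to 4, against 360, 307, 511 and 408 CPM in control libraries 1 to 4, and it was not called by edgeR (adjusted p = 0.0636). Myl1 was called higher by DESeq2, by limma-voom, and by edgeR with total count scaling, against controls 1 and 2 alone, without KO 3 and without control 3. The part of the fibre markers in the troponin levels was not tested. Among the other markers of skeletal muscle, the satellite cell and myoblast list held Pax7, Myf5, Myod1, Myog and Chrng, the last at 0. It summed to 0.325 to 0.471 CPM in KO libraries and 0.0509 to 0.153 CPM in control libraries. None of these genes passed the filter, and these sums rest on few reads. Myod1, with the most counts among them, had 4 to 11 counts in KO libraries and 1 to 3 in control libraries. Of the 7 myogenic regulators only Myf6 passed the filter, with 0.172 CPM in KO and 0.37 CPM in control (edgeR adjusted p = 0.0767), and it was called lower without KO 2 (adjusted p = 0.0377).

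Of 18 fast skeletal fibre genes 17 were tested, of which 2 rose, 2 fell and 13 were not called. The share called was 23.5%, below the 27.9% of all tested genes (median log2 fold change -0.83, beside 0.01 over all tested genes). Atp2a1, the calcium pump of fast fibres, averaged 2000 ± 81.4 CPM in KO and 211 ± 22.3 CPM in control (SD, n = 4 each; log2 fold change 3.25, SE 0.08, edgeR adjusted p = 5.15e-10). Casq1, which encodes the calcium store protein of skeletal muscle, averaged 123 ± 31.9 CPM in KO and 30.1 ± 4.56 CPM in control (log2 fold change 2.03, SE 0.19, edgeR adjusted p = 0.000103). Pgam2, a muscle glycolysis enzyme gene, fell by 0.64 on the log2 scale (edgeR adjusted p = 0.00699), a call lost against controls 1 and 2 alone (adjusted p = 0.0633). Myh2, the fast oxidative myosin, fell by 1.29 on the log2 scale (edgeR adjusted p = 0.0255), and was not called with KO 1, KO 3, control 1, control 3 or control 4 left out in turn (adjusted p = 0.0571 to 0.0717). Without KO 2 the list had 2 genes higher, Atp2a1 and Casq1, and 11 lower, Myh1, Myh4, Mylpf, Actn3 and Pvalb among them. The 27.9% of all tested genes is from the fit with all libraries, and the share called without KO 2 is not given here.

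**Figure D3:**
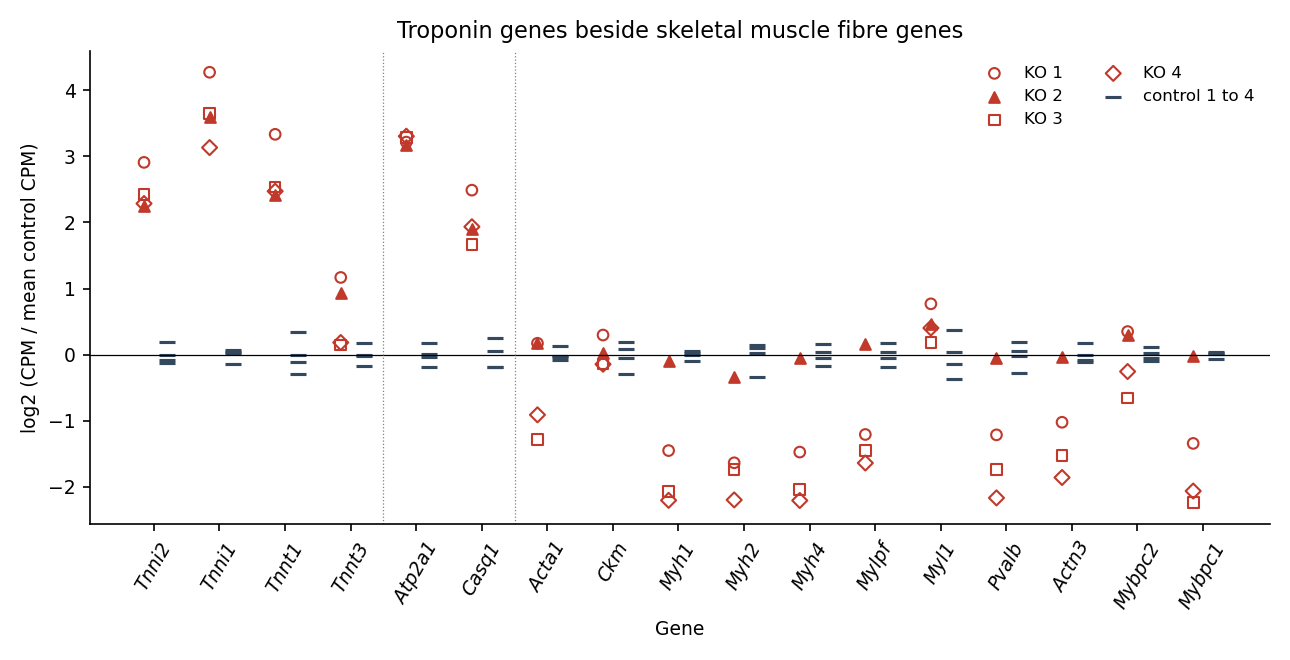
For each gene, red symbols give the 4 KO libraries and dark dashes the 4 control libraries as log2 of CPM over the mean control CPM, with troponin genes left of the first dotted line, Atp2a1 and Casq1 between the lines and the 11 skeletal fibre markers to the right. Tnni2, Tnni1, Tnnt1, Atp2a1 and Casq1 are above 0 in every KO library, while Myh1, Myh2, Myh4, Mylpf, Pvalb, Actn3 and Mybpc1 are lower in KO 1, KO 3 and KO 4 with KO 2 (filled triangle) near the controls.

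Among the thin filament partners of troponin, 4 of 17 tested genes rose, 3 fell and 10 were not called, which is 41.2% called, beside 27.9% of all tested genes (median log2 fold change 0.05, beside 0.01 over all tested genes). Tropomyosin, the strand that troponin T binds, differed by gene. Tpm2, the beta form, averaged 442 ± 58.8 CPM in KO and 191 ± 9.32 CPM in control (SD, n = 4 each; log2 fold change 1.21, SE 0.09, edgeR adjusted p = 1.93e-06). Tpm1, the main cardiac form, averaged 3681 ± 361 CPM in KO and 5597 ± 312 CPM in control (log2 fold change -0.60, SE 0.08, edgeR adjusted p = 0.000171). Tmod4, a tropomodulin that caps actin pointed ends in skeletal muscle, rose by 0.70 on the log2 scale (edgeR adjusted p = 0.00222), and Cap2, an actin-binding protein gene, fell by 0.43 on the log2 scale (edgeR adjusted p = 0.000322).

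Of 14 genes of slow skeletal muscle and the developing heart, 3 rose, 5 fell and 6 were not called, which is 57.1% called, beside 27.9% of all tested genes (median log2 fold change -0.29). Myl4, the light chain of atrial and embryonic muscle, averaged 3566 ± 367 CPM in KO and 5818 ± 515 CPM in control (edgeR adjusted p = 0.000124). Myh6, the alpha myosin heavy chain, averaged 26970 ± 2280 CPM in KO and 40460 ± 2249 CPM in control (edgeR adjusted p = 0.000207). Tppp3, a tubulin-binding protein gene, fell by 0.63 on the log2 scale (edgeR adjusted p = 0.000774). Mybpc3, cardiac myosin-binding protein C, rose by 0.57 on the log2 scale (edgeR adjusted p = 0.00769), a call lost against controls 3 and 4 alone (adjusted p = 0.0575). The count of 8 called genes was 5 against either control pair alone, without KO 2 and control 2 together, without KO 4 and without control 4.

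Of 31 transcription factors known to act on troponin or other striated muscle genes, 8 fell, 2 rose and 21 were not called, a share of 32.3% called that is near the 27.9% of all tested genes (median log2 fold change -0.17). Tbx5, the T-box factor of atrial muscle, averaged 195 ± 11.99 CPM in KO and 304 ± 7.49 CPM in control (log2 fold change -0.64, SE 0.06, edgeR adjusted p = 1.24e-05). Eya1, a transcriptional coactivator of fast fibres, averaged 7.14 ± 1.22 CPM in KO and 11.4 ± 0.875 CPM in control (edgeR adjusted p = 0.00179). Prox1, a homeobox factor of cardiac and slow muscle, fell by 0.49 on the log2 scale (edgeR adjusted p = 0.00185), and Nfatc2, a calcineurin-dependent factor, rose by 0.60 on the log2 scale (edgeR adjusted p = 0.0024).

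Of 19 kinases and phosphatases that act on troponin, 3 rose, 2 fell and 14 were not called, a share of 26.3% called that is near the 27.9% of all tested genes (median log2 fold change -0.02). Prkcd, protein kinase C delta, averaged 52.2 ± 4.00 CPM in KO and 30 ± 0.296 CPM in control (log2 fold change 0.80, SE 0.06, edgeR adjusted p = 3.85e-06). Rps6ka1, a ribosomal S6 kinase gene, rose by 1.00 on the log2 scale (edgeR adjusted p = 6.94e-05) and Prkcz by 0.59 (edgeR adjusted p = 0.00909, lost against controls 3 and 4 alone at 0.0766), while Prkce, protein kinase C epsilon, fell by 0.41 (edgeR adjusted p = 0.000602).

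Of 13 factors that splice troponin T and other muscle transcripts, 12 were tested, of which 4 fell, 1 rose and 7 were not called, which is 41.7% called, beside 27.9% of all tested genes (median log2 fold change -0.03). The 1 that rose, Ptbp1, had a log2 fold change of 0.17 (edgeR adjusted p = 0.0427). It was not called by DESeq2, by limma-voom, against either control pair alone, or with any 1 library other than KO 3 left out (highest adjusted p = 0.111). Rbfox1 averaged 52.7 ± 2.35 CPM in KO and 82.4 ± 6.82 CPM in control (log2 fold change -0.64, SE 0.07, edgeR adjusted p = 3.16e-05). Rbm24, Rbm20 and Celf1 fell by 0.42, 0.34 and 0.21 on the log2 scale (edgeR adjusted p = 0.00126, 0.00752 and 0.012). With total count scaling Celf1 was not called (adjusted p = 0.0645). The counts are per gene and do not show which exons of Tnnt2 were used.

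Of 40 protein-coding neighbours within 100 kb of a troponin gene, 32 were tested, of which 5 rose, 3 fell and 24 were not called. Their share called was 25%, beside 27.9% of all tested genes. Next to Tnni1, Phlda3, a p53-induced inhibitor of AKT 10.3 kb away, averaged 94.8 ± 6.38 CPM in KO and 31.7 ± 4.59 CPM in control (SD, n = 4 each; log2 fold change 1.58, SE 0.10, edgeR adjusted p = 6.94e-07). Csrp1, a LIM protein gene 27.2 kb away, averaged 209 ± 48.9 CPM in KO and 93.6 ± 8.69 CPM in control (log2 fold change 1.16, SE 0.14, edgeR adjusted p = 0.000329). Lad1, between Tnni1 and Tnnt2, averaged 26.4 ± 7.40 CPM in KO and 25.97 ± 5.03 CPM in control (edgeR adjusted p = 0.952).

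Around Tnni2 and Tnnt3, Lsp1, a leukocyte gene between them, averaged 117.5 ± 7.35 CPM in KO and 104 ± 5.94 CPM in control (edgeR adjusted p = 0.0587). Syt8, only 1.4 kb from Tnni2, did not pass the filter, with 0.164 CPM in KO and 0.083 CPM in control. Mrpl23, a mitochondrial ribosomal protein gene 16.7 kb from Tnnt3, averaged 19.5 ± 2.56 CPM in KO and 40.9 ± 0.924 CPM in control (log2 fold change -1.07, SE 0.09, edgeR adjusted p = 4.23e-06). Ctsd, the cathepsin D gene, rose by 0.21 on the log2 scale (edgeR adjusted p = 0.017), a call lost without KO 4 (adjusted p = 0.0523) or control 4 (adjusted p = 0.065), without KO 2 and control 2 together (adjusted p = 0.0557) and against either control pair alone (adjusted p = 0.162 and 0.0932).

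Around Tnni3 and Tnnt1 none of the tested neighbours Rdh13, Eps8l1, Ppp1r12c, Dnaaf3 and Syt5 was called by edgeR, with log2 fold changes of -0.27 to 0.21. These 5 genes had adjusted p of 0.13 to 0.695 by edgeR. Near Tnnc1, Stab1, a scavenger receptor gene, rose by 0.35 on the log2 scale (edgeR adjusted p = 0.00366), a call lost against controls 3 and 4 alone (adjusted p = 0.0686). Nisch, which overlaps Tnnc1 on the opposite strand without a shared exon, rose by 0.24 (edgeR adjusted p = 0.0198), a call lost without KO 3, KO 4 or control 3 (adjusted p = 0.0548 to 0.0632) and against either control pair alone (adjusted p = 0.159 and 0.0748). Near Tnnc2, Neurl2 fell by 0.59 on the log2 scale (edgeR adjusted p = 0.00232), and Ctsa fell by 0.17 (edgeR adjusted p = 0.0323), a call lost without any 1 library other than KO 1 (adjusted p = 0.0522 to 0.0909).

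**Figure D4:**
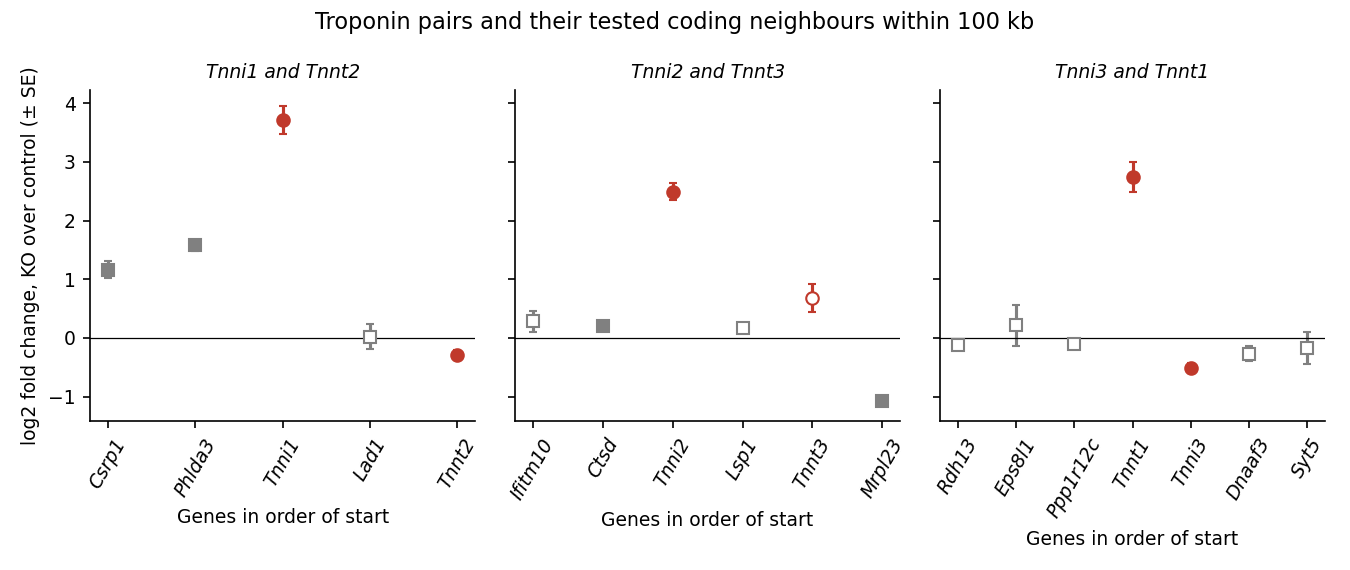
Log2 fold changes of KO over control with their standard errors are drawn for the troponin genes (red circles) and their tested protein-coding neighbours (grey squares), in order of gene start, filled where called by edgeR. Tnni1 at 3.71 and Tnnt2 at -0.29 stand at the same locus with Lad1 at 0.02 between them, and Tnnt1 at 2.74 is next to Tnni3 at -0.51.

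The genes whose levels followed a troponin I gene most closely over the 8 libraries were found by Pearson's r of log2 CPM. The search covered 13227 tested genes whose mean reached 1 CPM, without the troponin genes and without symbols of the Gm or Rik kind. The r values mix the difference between groups with the spread inside them and are given as a description. They do not compare the size of the changes. For Tnni1 the genes were Sfr1 (r = 0.998), Grhpr (r = 0.997), Rom1 (r = 0.996) and Cd59a (r = 0.994). Their log2 fold changes were 0.45 to 1.83, beside 3.71 for Tnni1. For Tnni2 they were Nacad (r = 0.997), Tpm2 (r = 0.996), Rom1 (r = 0.995) and Sfr1 (r = 0.995), of which Tpm2 is the thin filament partner described above. Log2 fold changes of these genes were 0.45 to 3.875, beside 2.49 for Tnni2. For Tnni3 they were Pkig (r = 0.998), Atp5mpl (r = 0.998), Uqcrh (r = 0.998) and Ecsit (r = 0.996), with log2 fold changes of -0.60 to -0.30.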

How the data were processed

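Poly(A) RNA of mouse atria was sequenced in 4 KO and 4 control libraries. The authors deposited raw counts per gene for all libraries, and the submitters' processing notes name STAR, DESeq2 and the mm10 build. No source used here gives the counting step, its strand setting or its annotation. Gene positions, exon lengths and neighbours came from GENCODE M21 on GRCm38, and promoter sequence from RefSeq on GRCm38.p6.

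Counts were fitted with edgeR 4.0.16 in R 4.3.3, by the quasi-likelihood test with TMM scaling after filterByExpr with a minimum count of 10. P-values were adjusted by Benjamini-Hochberg over all 18033 tested genes, and calls were made at adjusted p under 0.05. The procedure was tested on simulated data. DESeq2 1.42.0, limma 3.58.1 (voom with quality weights), other scalings and filters, a replicate block, a Y-linked covariate, control pairs and left-out libraries were alternatives. CPM used TMM-scaled library sizes. Isoform shares were computed per library from CPM per kb. Chi-square per degree of freedom between libraries of a group was 12.2 to 31.4, so none was counted as a duplicate.

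Members and gene lists were chosen with earlier results of these data known. Named genes were the 8 troponin genes, Chd4 and Nppa, up to 4 genes with the smallest p in each list, protein-coding neighbours within 100 kb, and the 4 genes that best followed each troponin I gene. Ddx3y, Ube2c, Ptbp1, Myh7b, Tbx15, Myl1 and other marker genes were named outside this rule, after their values were seen.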

Additional observations from a re-analysis of the deposited data

Results flagged for a closer look

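In 3 of 36 groups of 4 libraries, 1 library stood far from the others, judged by its gap to the nearest library over the range of the group, by a limit that chance passes in about 1 of 20 groups. The 36 groups are not independent, because shares are made from the same CPM values. Both Tnnt1 flags below rest on KO 1, so 3 of 36 cannot be set against that rate. For Tnnt1 CPM in KO the gap was 0.901 of the range, with KO 1 at 170.5 CPM and the other KO libraries at 90.2 to 98.1 CPM. For the Tnnt1 share of troponin T in KO it was 0.917, with KO 1 at 6.85% and the others at 4.49% to 4.69%. For Tnnc2 CPM in control it was 0.939, which stands for 3 counts in control 3 and 2 counts in each of the other control libraries.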

How the results depend on the processing

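Over 19 alternatives Tnni1, Tnni2, Tnni3 and Tnnt1 were called in 19, with the direction given above, Tnnt2 in 17, Tnnc1 in 4 and Tnnt3 in 2. The KO and control libraries with the same number deviated together with correlations of -0.0153, 0.303, -0.0563 and 0.105. The value of KO 2 and control 2 was the highest, beside -0.225 to 0.173 for libraries of unlike number. The labels give no pairing, and whether the numbers pair libraries was not settled. With the replicate block 9 fast skeletal fibre genes were called, against 4 without it, and Tnnc1 was called (edgeR adjusted p = 0.0281). The fast skeletal count was 7 by DESeq2, 15 by limma-voom, 13 without KO 2 and control 2, and 3 to 13 with 1 library left out. The share of all tested genes called in each of these settings is not given here, so these counts have no background beside them. The slow skeletal and developing heart count was 5 without KO 2 and control 2, and against controls 1 and 2 alone or controls 3 and 4 alone. With any 1 library left out that count was at least 5 and always below 8, the count with all libraries. Myogenic regulators called were 0 to 1 with 1 library left out. Against controls 3 and 4 alone 1700 genes were called higher, and 5 neighbours were called. The cause of these changes was not tested.

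Shares depend on length by construction. Per kb of the longest coding transcript, and by reads with no length correction, Tnni1 was 2.85% and 3.69% in KO and 0.196% and 0.248% in control. Tnni2 was 20.2% and 17.4% in KO and 3.19% and 2.70% in control. Tnni3 was 78.9% by reads in KO, and 96.6% and 97.1% in control. Tnnt1 was 1.92% and 1.705% in KO and 0.2465% and 0.218% in control. Tnnt2 was 94.7% and 95.2% in KO and 98.0% and 98.2% in control. Tnnt3 was 3.38% and 3.055% in KO and 1.79% and 1.615% in control.

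Among the troponin genes, their neighbours and the 4 genes of smallest p in each list, changes of sign were in neighbours that were not called. Other list genes that were not called also changed sign with 1 library left out, such as Myh7b (-0.43 to 0.36) and Tbx15 (-0.39 to 0.20). Lad1 had log2 fold changes of -0.11 with the Y-linked covariate, -0.12 against controls 3 and 4, -0.12 by limma-voom, and -0.16 to 0.17 with 1 library left out. Pbrm1 had -0.0073 by DESeq2, -0.0046 with its size factors, -0.032 without KO 2 and control 2, -0.037 against controls 3 and 4, -0.011 by limma-voom, and -0.019 to 0.018 with 1 library left out. Against controls 1 and 2 alone Syt5 had 0.041, Wfdc3 -0.48 and Dnttip1 0.082. With total count scaling Bap1 had 0.041, Dnttip1 0.060, Zswim3 0.014 and Pcif1 0.0036, and Zswim3 had 0.023 without KO 2 and control 2. With 1 library left out Eps8l1 had -0.033 to 0.53, Wfdc3 -0.11 to 0.59 and Dnttip1 -0.089 to 0.037.

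At this depth Tnnc2 was at or near the floor of 3 counts. Group and library name prefix cannot be told apart, and the number of mice per library is not known here.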
